A study of Mus musculus with 2 samples.

Results

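The JAK-STAT, SOCS and tyrosine phosphatase genes include the route by which leptin and cytokines of the interleukin 6 family act on a cell, together with its brakes. The Ptpn phosphatases were taken as a family, and several are described below in other roles. The genes were matched by symbol, in a set chosen with earlier results of these data known. All probe sets were taken whose single symbol names a JAK kinase, STAT factor, SOCS protein or Cish, PIAS ligase or Ptpn phosphatase. Those of the receptors Il6st, Il6ra, Lifr, Cntfr and Osmr were taken too. This gave 44 genes of 22296 named on the array, and 1013 of its 318760 probe sets with 1 symbol. The samples were AgRP neurons, which produce agouti-related peptide in the hypothalamus and promote feeding, collected by FACS from FoxO1 KO mice and from FoxO1 heterozygous KO mice, the control of the study. Both groups were of mixed genetic background and came from age- and sex-matched littermates fed freely. There was 1 exon-level array per genotype, so each difference below is a value of 2 arrays with no test and no replicate error. Nothing used here gives the age of the mice, the cells in which FoxO1 was deleted, the driver of the deletion or any pooling of animals.

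Cytokine receptors of this type have no enzyme activity of their own. Binding of the ligand brings together JAK kinases held on the receptor tails, which phosphorylate the receptor and the STAT factors that dock there, and the STATs then enter the nucleus and switch on genes that include their own inhibitors, Socs3 and Cish. In AgRP neurons and their POMC neighbours, leptin signals through Jak2 and Stat3, and Socs3 and the phosphatase Ptpn1 are known to restrain that signal. FoxO1 leaves the nucleus when insulin signals, and Stat3 and FoxO1 are known to act in opposite directions on the Agrp and Pomc promoters.

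Every difference is the KO value minus the heterozygous value in log2 units, so that 1 is a 2-fold difference. A gene's difference is the median over its probe sets whose mean over both arrays reached a floor of 5.86, and its level on an array is their median on that array. Levels and differences are separate medians, so a gene's difference can depart from the gap between its levels. The SD printed with it is taken across probe sets of the gene. It describes how far the probe sets of 1 gene disagree on 1 pair of arrays, and it says nothing of variation from mouse to mouse. Probe sets differ in brightness for reasons of their sequence, so levels are compared between arrays and never between genes. The 2-fold rule asks for a difference of 1 or more in size and for agreement in direction of 75% or more of the gene's probe sets.

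The targeted gene, Foxo1, had a level of 7.46 on the KO array against 7.98 on the heterozygous array, with a difference of -0.48 (SD 0.53) and all 8 of its used probe sets lower. Their position relative to the deletion is unknown here. Both defining peptides of the sorted cells were bright on both arrays, with Agrp levels of 12.4 (KO array) and 12.0 (heterozygous array) and Npy levels of 12.2 (KO array) and 12.3 (heterozygous array). The 12 AgRP neuron markers had a median difference of 0.12, and none passed the 2-fold rule. Markers of oligodendrocytes and their precursors were lower on the KO array, with a median of -0.86 over 21 evaluated genes, all 21 below 0 and 10 of them past the rule. Markers of endothelial cells and pericytes were below 0 in 9 of 9 evaluated genes, with a median of -0.33 and none past the rule. Astrocyte markers had a median of -0.20 over 10 evaluated genes, from -0.73 to 0.66, with 7 below 0. Lymphocyte markers had a median of -0.29 over 5 evaluated genes, from -0.78 to 0.03, with 4 below 0. No gene of these last lists passed the rule. Over all genes, 65.2% were below 0, the median was -0.11 and 1.12% passed the rule as lower. Below that median lay 20 of the 21 oligodendrocyte genes and 7 of the 9 endothelial and pericyte genes. The same held for 7 of the 10 astrocyte genes and 3 of the 5 lymphocyte genes. Fewer cells of a type and less RNA per cell cannot be told apart in such samples. Several of the 44 genes are also expressed outside neurons, and the part of these markers in the values below was not tested.

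None of the 44 genes passed the 2-fold rule in either direction. Over all 16639 evaluated genes the rule took 1.13% as higher and 1.12% as lower, so a count of 0 among 44 lies near that background. At a 1.5-fold rule the count was still 0, where 3.28% of all genes were higher and 4.9% lower. The median difference was -0.13 (quartiles -0.26 and -0.04), beside -0.11 (quartiles -0.29 and 0.09) over all genes. Of the 44 genes, 34 lay below 0, or 77.3%, beside 65.2% of all genes. Read against the median over all genes, 23 of them lay below it and 21 above. With both arrays centred on the probe sets that have 1 symbol, 29 of the 44 were below 0, and the calls over all genes moved to 233 higher and 145 lower, beside 188 higher and 186 lower as deposited. With the trend of the difference on level removed, that split was 229 and 150.

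The 44 differences ran from -0.74 for Lifr to 0.47 for Il6st, and only Lifr and Ptpn9 were 0.5 or more in size. That is 4.55% of the 44, beside 15.3% of all genes. The genes rested on more probe sets than most, with a median of 15.5 beside 10 over all genes, and a median over more probe sets tends to vary less. Among the 35 of them with at least 10 probe sets, 5.71% were 0.5 or more in size, beside 13.1% of the 8543 genes with as many. In each of the 44 genes the SD over probe sets was larger than the size of the difference. The median SD was 0.74 over the 44 genes, beside 0.68 over all genes. How many of all genes have an SD larger than their difference was not counted, so this is no trait of the 44.

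**Figure D1:**
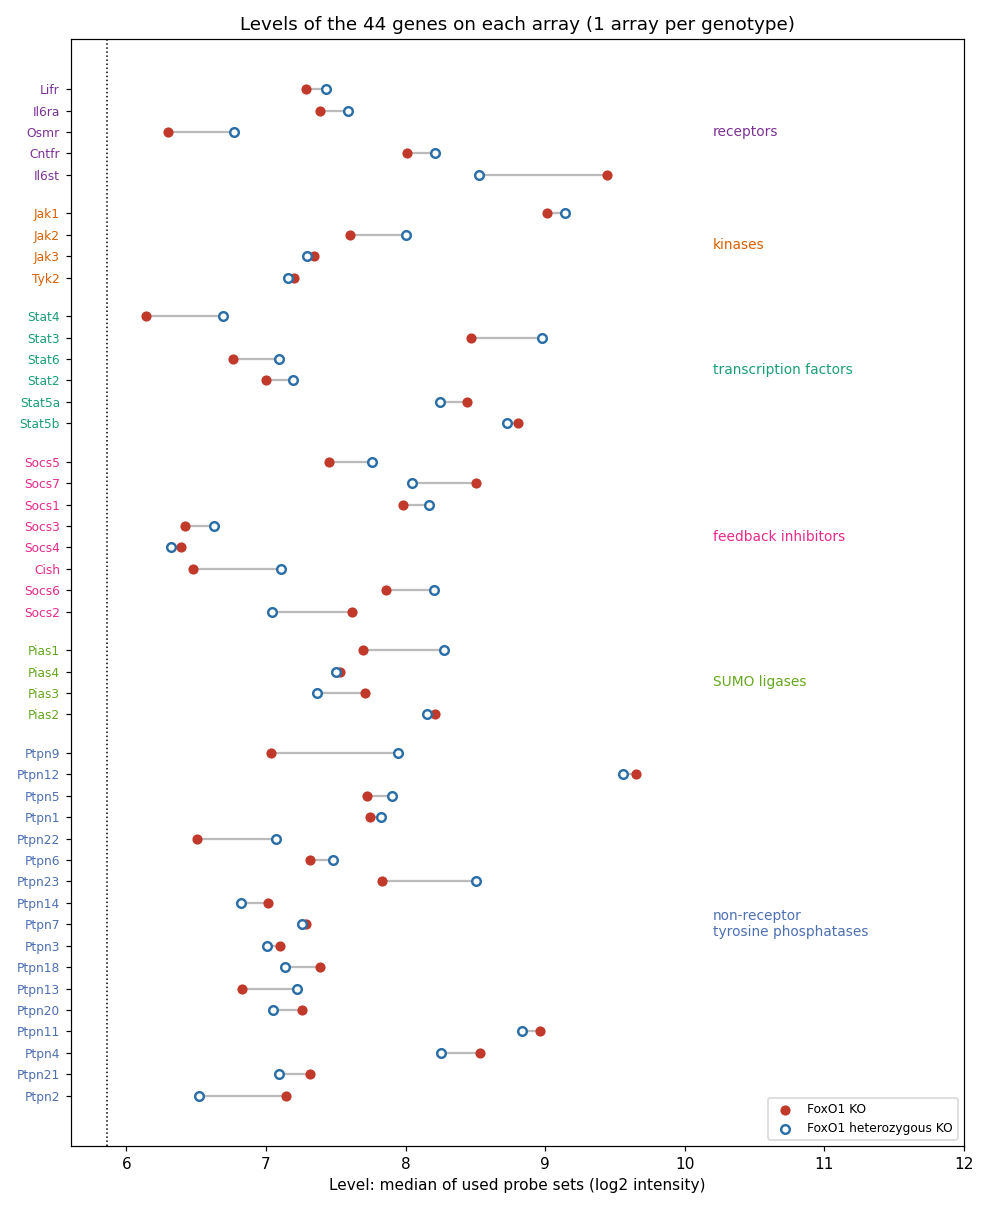
Level of each of the 44 genes on the FoxO1 KO array (filled red) and the FoxO1 heterozygous KO array (open blue), in log2 intensity, grouped by role and ordered within a group by the difference. The dotted line marks the floor of 5.86, and the horizontal gap is between levels, which need not equal the printed difference. Il6st shows the KO point well to the right of the heterozygous one, at 9.44 against 8.53, while Ptpn9 shows it to the left, at 7.04 against 7.95.

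The receptors held both ends of the list. Il6st encodes gp130, the signal-transducing subunit that all members of the interleukin 6 family share, and it had the highest value of the 44. Its level was 9.44 on the KO array against 8.53 on the heterozygous array, with a difference of 0.47 (SD 0.76) and 15 of 18 probe sets higher. These probe sets spread from -0.98 (7.55 on the KO array against 8.53) to 1.96 (10.39 against 8.43), and none was 4-fold apart. Il6st was the one gene of the 44 with at least 75% of its probe sets higher, which is 2.27%, beside 9.56% of all genes. It was above 0 under each processing setting, between 0.45 and 0.58. Here and below, the settings share the same 2 arrays, and some only change which genes are evaluated and cannot move a gene's value.

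Lifr, the receptor chain that pairs with gp130 for leukaemia inhibitory factor and ciliary neurotrophic factor, had the lowest value. Its level was 7.28 on the KO array against 7.43 on the heterozygous array, yet the median of the paired differences was -0.74 (SD 1.23), with 10 of 14 probe sets lower. Its used probe sets did not differ alike. The lowest of them, at -2.95, stood at 6.31 on the KO array against 9.25 on the heterozygous array, while 4 were higher on the KO array by 0.72 to 1.17. Lifr reached -1.32 over 7 probe sets when the floor was set at the 75th percentile, and there it passed the 2-fold rule, which made it 1 of 38 genes then evaluated, beside 1.57% of all genes lower in that setting. Over all settings Lifr ran from -1.32 to -0.60. Of all evaluated genes, 3.34% had a lower difference than Lifr.

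The remaining receptors lay between these. Il6ra, the ligand-binding chain for interleukin 6, was at -0.42 (SD 0.47), with a level of 7.39 on the KO array against 7.59 on the heterozygous array and 9 of 12 probe sets lower. Osmr, the oncostatin M receptor chain, was at -0.33 (SD 0.75), with 6.30 on the KO array against 6.77 on the heterozygous array. Only 8 of the 27 Osmr probe sets reached the floor, so most of that transcript gave little signal on either array. Cntfr, the ciliary neurotrophic factor chain that has no cytoplasmic tail, was at -0.15 (SD 1.09) with 7 of 12 probe sets lower, and 0.18 when probe sets were averaged. The highest Cntfr probe set, with a difference of 3.11, stood at 9.09 on the KO array against 5.98 on the heterozygous array. The median over the 5 receptors was -0.33.

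**Figure D2:**
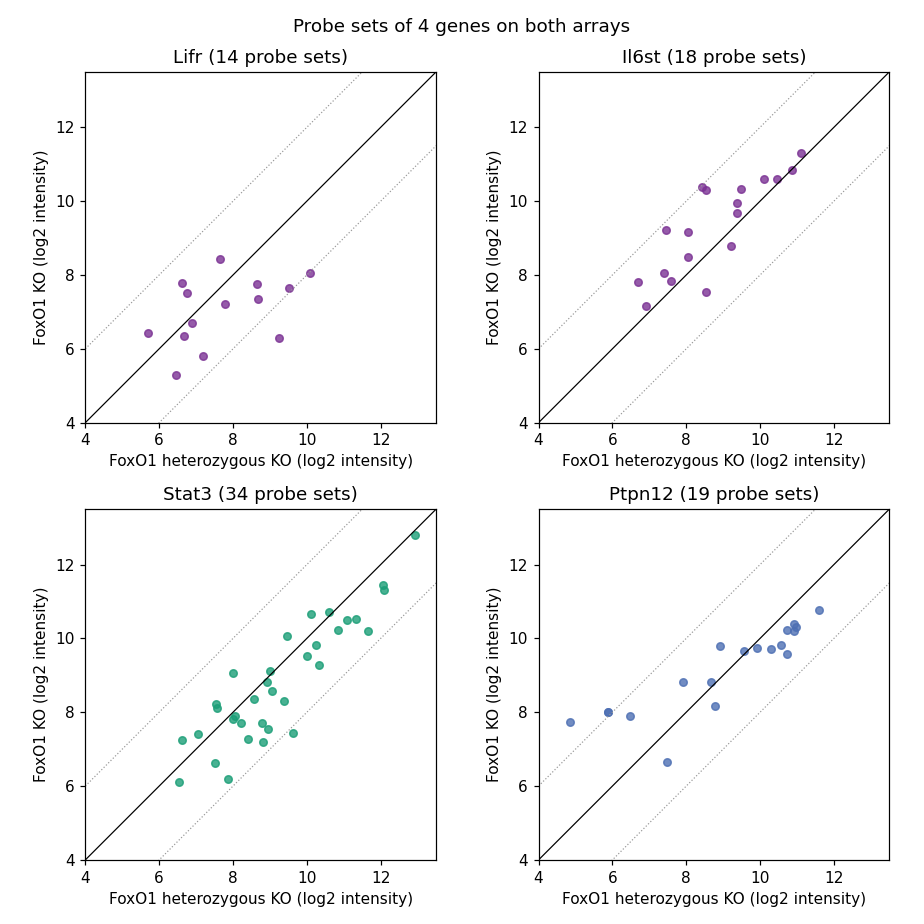
Probe sets of Lifr, Il6st, Stat3 and Ptpn12, with the FoxO1 heterozygous KO array on the horizontal axis and the FoxO1 KO array on the vertical axis, both in log2 intensity. The solid line marks equal values and the dotted lines a 4-fold difference either way. Most Il6st points lie above the solid line (15 of 18) and most Stat3 points below it (25 of 34), while Lifr (10 of 14 below) and Ptpn12 (11 of 19 below) have points well away from the line on both sides.

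The kinases differed least. All 4 were between -0.12 and -0.06, and 3 of the 4 lay above the median over all genes. Jak1, which serves gp130 and interferon receptors, was at -0.12 (SD 0.74) with 9.01 on the KO array against 9.14 on the heterozygous array and 23 of 40 probe sets lower. Jak2, the kinase of the leptin, growth hormone and prolactin receptors, was at -0.07 (SD 1.06), with 7.60 on the KO array against 8.0 on the heterozygous array. Its 22 probe sets were split into 12 lower and 10 higher, and their differences ran from -2.40 to 2.32. Jak3, which is best known from lymphoid cells, was at -0.06 (SD 0.55; 7.35 on the KO array, 7.30 on the heterozygous array). Tyk2, a kinase of interferon and interleukin 12 family receptors, was also at -0.06 (SD 0.55; 7.20 on the KO array, 7.15 on the heterozygous array). Jak2, Jak3 and Tyk2 lay just above 0 with the arrays centred, so these values set no direction.

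All 6 STAT genes of the 44 were below 0, beside 65.2% of all genes, with a median of -0.23. Against the median of -0.11 over all genes, 4 of the 6 lay below it and 2 above. Stat4 and Stat5a were at 0.01 in 1 setting each. Stat3, the main STAT of leptin and gp130 signalling, was at -0.48 (SD 0.77), with 8.47 on the KO array against 8.98 on the heterozygous array. Of its 34 probe sets 25 were lower, which is just under the 75% mark. The brightest Stat3 probe set hardly differed, at 12.80 on the KO array against 12.92 on the heterozygous array. The largest difference in the gene was -2.19, at 7.43 on the KO array against 9.63 on the heterozygous array, and the highest was 1.04. Over the processing settings Stat3 stayed between -0.48 and -0.40, and 10.1% of all genes had a lower difference.

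The other STATs varied in how much of their transcript was measured. Stat4, a lymphoid STAT, was at -0.48 (SD 0.93; 6.14 on the KO array, 6.69 on the heterozygous array), but only 5 of its 26 probe sets reached the floor, and with no floor it stood at 0.01. Stat6, the interleukin 4 STAT, was at -0.26 (SD 0.69), with 6.76 on the KO array against 7.09 on the heterozygous array and 13 of 16 probe sets lower. Stat2, a partner in the interferon response, was at -0.20 (SD 0.63), with 7.0 on the KO array against 7.20 on the heterozygous array. Its 16 probe sets divided into 8 that were lower, by 0.52 to 0.89, and 8 that were higher, by 0.12 to 1.12, with none in between. Stat5a was at -0.10 (SD 0.52; 8.44 on the KO array, 8.25 on the heterozygous array) and Stat5b at -0.08 (SD 0.84; 8.81 on the KO array, 8.73 on the heterozygous array). These closely related factors of growth hormone and prolactin signalling differed from each other by less than the SD of either.

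**Figure D3:**
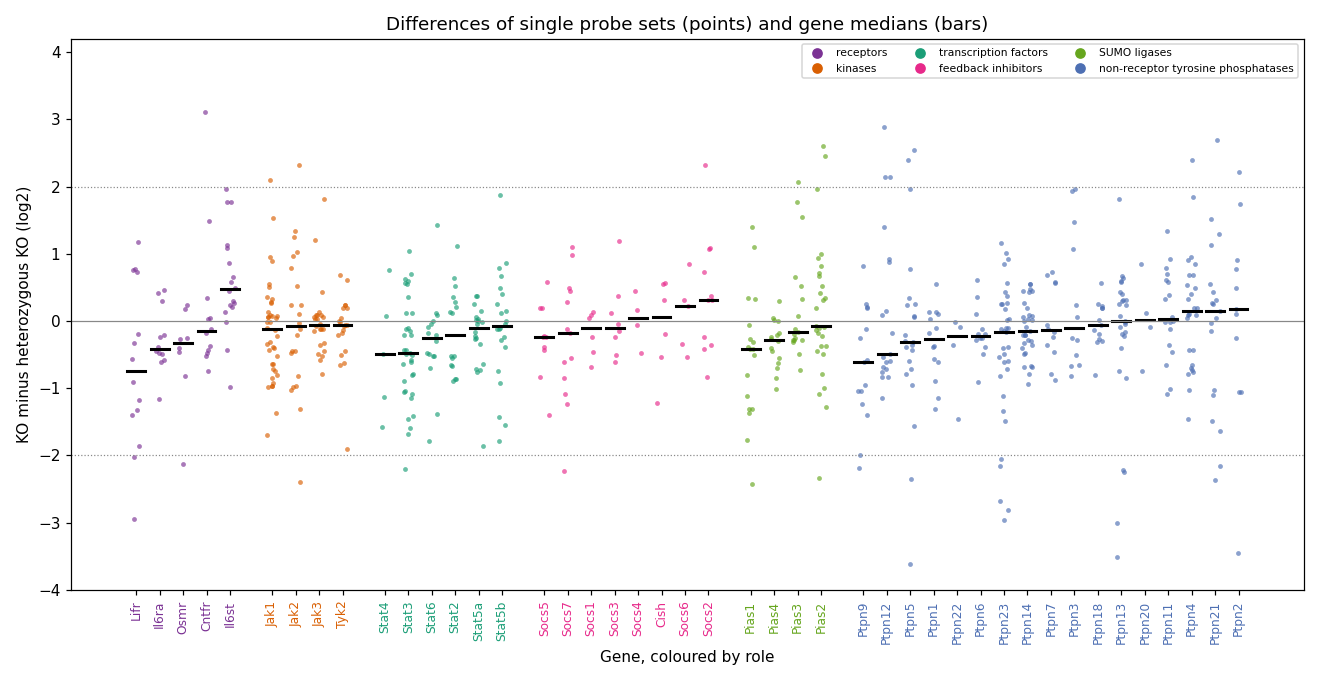
Difference of each used probe set (points, 718 in all) and the gene median (black bars) for the 44 genes, on the log2 scale of KO minus heterozygous KO, coloured by role. Dotted lines mark a 4-fold difference. Probe sets of nearly every gene lie on both sides of 0, with Ptpn22, at 4 of 4 lower, the exception.

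Among the inhibitors, Cish and Socs1 to Socs3 are known to be switched on by STATs, which is less established for Socs4 to Socs7. The group median was -0.02 over 8 genes, with 4 below 0 and 4 above. Socs3, which binds gp130, the leptin receptor and Jak2, was at -0.10 (SD 0.57), with 6.42 on the KO array against 6.63 on the heterozygous array. Of its 8 probe sets 5 were lower and 3 higher, between -0.61 and 1.19. Its highest probe set was also among its brightest, at 8.48 on the KO array against 7.29 on the heterozygous array. A floor at the 75th percentile left 3 Socs3 probe sets with a median of 0.38, so its sign depended on which probe sets were counted. Cish, a known STAT5 target, was at 0.06 (SD 0.70), with 3 of 6 probe sets higher. Its levels were 6.48 on the KO array against 7.11 on the heterozygous array, which run opposite to the sign of the difference.

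STAT dimers bind the letters TTCNNNGAA, where N is any base, and this pattern reads the same on both strands. FoxO factors bind TGTTTAC, with TTGTTTAC as a longer form that contains it. Promoters from 250 bases before to 50 after the annotated start were matched by symbol for 36 of the 44 genes, in 50 windows, from RefSeq (GRCm38.p6). TTCNNNGAA was found in windows of 4 of these genes, Cish, Socs3, Ptpn22 and Ptpn23, or 8% of the 50 windows, beside 8.3% of all 32851 windows. TGTTTAC was found on either strand in none of the 50 windows, beside 3.65% of all windows, and TTGTTTAC in none, beside 1.23%. The promoters of Cish and Socs3 are shown because these genes are the family's standard STAT readouts. The bases run 5′ to 3′ on the gene's strand, with the TTCNNNGAA matches in capitals.
Cish (chr9:107296409-107296708, plus strand): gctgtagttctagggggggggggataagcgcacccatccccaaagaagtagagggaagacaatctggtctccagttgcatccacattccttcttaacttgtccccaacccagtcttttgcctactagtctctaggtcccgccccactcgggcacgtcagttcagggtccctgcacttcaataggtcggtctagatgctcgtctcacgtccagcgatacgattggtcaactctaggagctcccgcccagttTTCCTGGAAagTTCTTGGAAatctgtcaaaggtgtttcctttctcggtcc
Socs3 (chr11:117969317-117969616, minus strand): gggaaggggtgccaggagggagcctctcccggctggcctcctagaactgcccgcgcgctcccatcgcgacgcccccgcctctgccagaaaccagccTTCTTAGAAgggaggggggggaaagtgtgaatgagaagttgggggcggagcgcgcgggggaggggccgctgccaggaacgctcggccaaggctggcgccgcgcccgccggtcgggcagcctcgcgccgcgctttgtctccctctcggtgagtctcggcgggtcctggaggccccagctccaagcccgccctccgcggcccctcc
Cish carries 2 such matches, TTCCTGGAA at the annotated start and TTCTTGGAA 11 bases further on, and Socs3 carries TTCTTAGAA 154 bases before its start. A match of letters is a description of the window and no measure of binding in these cells.

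Socs2, which restrains growth hormone signalling, was the highest of the inhibitors at 0.32 (SD 0.89), with 7.62 on the KO array against 7.04 on the heterozygous array. Of its 11 probe sets 7 were higher, and 1 stood at 9.22 on the KO array against 6.90, a difference of 2.32. Socs2 kept a value between 0.32 and 0.56 under each setting. Socs6 was at 0.23 (SD 0.55, 3 of 5 probe sets higher), although its level was 7.86 on the KO array against 8.20 on the heterozygous array, and its value was -0.06 under the higher floor. Socs1, the inhibitor of interferon signalling, was at -0.10 (SD 0.33), with 7.98 on the KO array against 8.17 on the heterozygous array. Socs4 was at 0.05 (SD 0.39), Socs5 at -0.24 (SD 0.56) and Socs7 at -0.17 (SD 0.95). Socs7 was at 0.37 under the higher floor, and 1 of its probe sets stood at 5.57 on the KO array against 7.81 on the heterozygous array.

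PIAS proteins bind STATs and attach SUMO to transcription factors. All 4 were below 0, beside 65.2% of all genes, with a median of -0.22, but Pias2 and Pias3 lay above 0 by the mean over probe sets. Against the median of -0.11 over all genes, 3 of the 4 lay below it and 1 above. Pias1 was lowest at -0.41 (SD 0.96), with 7.69 on the KO array against 8.28 on the heterozygous array and 14 of 18 probe sets lower. Pias4 was at -0.28 (SD 0.35) with 13 of 16 probe sets lower, and its small SD shows that the probe sets agreed better than those of most of these genes. Pias3, named for STAT3, was at -0.16 (SD 0.83; 7.71 on the KO array, 7.37 on the heterozygous array) and Pias2 at -0.08 (SD 1.07; 8.21 on the KO array, 8.15 on the heterozygous array).

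The 17 non-receptor tyrosine phosphatases had a median of -0.14, with 12 below 0 and 5 above. That is 70.6% below 0, beside 65.2% of all genes, and 9 of the 17 lay below the median over all genes. Ptpn1 (PTP1B), which dephosphorylates Jak2 and the insulin receptor, was at -0.27 (SD 0.53), with 7.74 on the KO array against 7.82 on the heterozygous array and 9 of 14 probe sets lower. Its probe sets ran from -1.31 to 0.55, and it was below 0 in each setting, between -0.38 and -0.18. Ptpn2 (TC-PTP), its closest relative and a phosphatase of STATs in the nucleus, was at 0.19 with the widest disagreement of the 44 genes (SD 1.55). Of its 11 probe sets 1 stood at 5.41 on the KO array against 8.86 on the heterozygous array, a difference of -3.45, while another stood at 9.18 on the KO array against 6.96 on the heterozygous array. Ptpn11 (SHP2), which binds gp130 and the leptin receptor and carries the signal towards ERK, was at 0.03 (SD 0.66), with 8.97 on the KO array against 8.83 on the heterozygous array. All 18 Ptpn11 probe sets reached the floor, and 9 were lower and 9 higher.

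Ptpn9 (MEG2), a phosphatase of secretory vesicles, had the lowest value among the phosphatases at -0.61 (SD 0.86). Its level was 7.04 on the KO array against 7.95 on the heterozygous array, with 11 of 15 probe sets lower, which missed the 75% mark. Ptpn9 stayed below -0.5 in each setting and stood at -0.95 with no floor. Ptpn12 (PTP-PEST), which acts on focal adhesion proteins, was at -0.49 (SD 1.20) although its level was 9.65 on the KO array against 9.56 on the heterozygous array. Of its 19 used probe sets 11 were lower and 8 higher, between -1.15 and 2.89. Averaged over probe sets, Ptpn12 was at 0.17.

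Single probe sets stood far from their gene in other large phosphatases too. Ptpn23 (HD-PTP), which sorts receptors at endosomes, was at -0.16 (SD 1.08) over 34 probe sets, of which 5 were at least 4-fold lower and none 4-fold higher. The brightest of these 5 stood at 9.22 on the KO array against 11.89 on the heterozygous array. Ptpn13 (PTP-BAS) had a difference of -0.0015 (SD 1.19), yet 4 of 27 probe sets were at least 4-fold lower, to 6.05 on the KO array against 9.57. Ptpn5 (STEP), a brain phosphatase of glutamate receptors, was at -0.30 (SD 1.39), with 2 probe sets 4-fold or more above and 2 as far below. The lowest of these stood at 4.57 on the KO array against 8.19 on the heterozygous array. Ptpn21 was at 0.16 (SD 1.31) but at -1.03 over the 7 probe sets that reached the 75th percentile, with too little agreement for a call.

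Ptpn4 was at 0.15 (SD 0.87, 17 of 26 probe sets higher), above the upper quartile of 0.09 over all genes. The following lay within the quartiles over all genes, with Ptpn14 at -0.14 (SD 0.42), Ptpn3 at -0.10 (SD 1.04), Ptpn7 at -0.14 (SD 0.56), Ptpn18 at -0.06 (SD 0.35) and Ptpn20 at 0.02 (SD 0.66). Ptpn6 (SHP1) and Ptpn22, known chiefly from blood cells, were at -0.22 each. Ptpn6 had 7.31 on the KO array against 7.48 on the heterozygous array (SD 0.39, 9 of 12 probe sets lower). Only 4 of 23 Ptpn22 probe sets and 4 of 14 Ptpn20 probe sets reached the floor. Markers of microglia and macrophages, which express Ptpn6, had a median of -0.12 over 10 evaluated genes, from -0.30 to 0.50, and their part in the Ptpn6 value was not tested.

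Across the 44 genes 718 of 1013 probe sets reached the floor, or 70.9%, beside 67.8% of all probe sets with 1 symbol. Of the 718, 15 were higher by 4-fold or more on the KO array and 23 lower by as much, or 2.09% and 3.2%, beside 2.56% and 2.6% of all. These 38 probe sets lay in 19 of the 44 genes, and 5 genes held some of each direction. The share of all genes that hold such a probe set was not counted, and a gene with more probe sets is likelier to hold 1. At a 2-fold mark the counts were 57 higher and 85 lower, or 7.94% and 11.8%, beside 9.24% and 11% of all. At least 75% of probe sets were lower in 7 genes (Stat6, Pias1, Pias4, Il6ra, Osmr, Ptpn6 and Ptpn22), or 15.9%, beside 23.3% of all genes. These shares lie close to, or below, those of the other genes on the array.

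**Figure D4:**
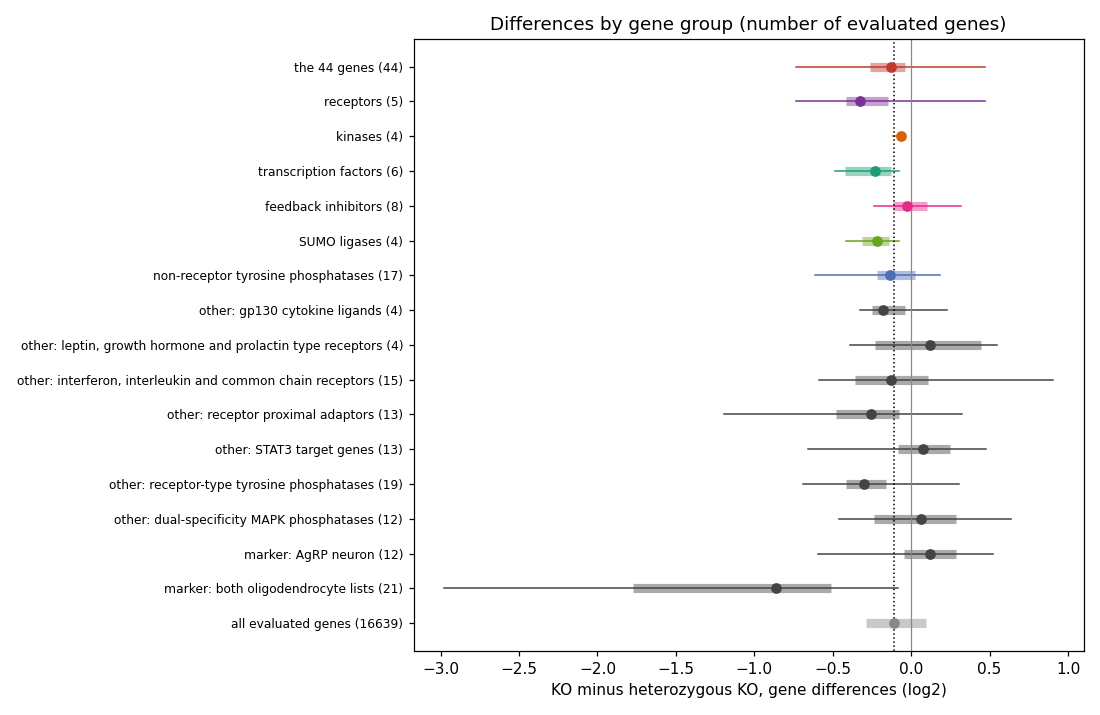
Gene differences (log2, KO minus heterozygous KO) for the 44 genes, their 6 role groups, 7 other lists of the pathway, 2 marker lists and all evaluated genes, with the number of evaluated genes in parentheses. Points are medians, thick bars run between quartiles and thin lines from the lowest to the highest gene (not drawn for all genes), and the dotted line marks the median of -0.11 over all genes. The kinases occupy the narrowest span and the oligodendrocyte markers lie furthest to the left.

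Further parts of the pathway were described with lists chosen with earlier results of these data known. Ligands of the gp130 family had a median of -0.18 over 4 of 9 genes evaluated, none past the 2-fold rule, from Clcf1 at -0.33 (SD 0.41) to Ctf1 at 0.23 (SD 0.55). Receptors of the leptin, growth hormone and prolactin type had a median of 0.12 over 4 of 6 genes. The leptin receptor Lepr was at 0.41 (SD 0.82), with 8.56 on the KO array against 8.12 on the heterozygous array and 21 of 27 probe sets higher. The growth hormone receptor Ghr was at 0.54 (SD 0.74), with 9.78 on the KO array against 9.56 on the heterozygous array and 14 of 20 probe sets higher. In that list the erythropoietin receptor Epor was lowest at -0.39 (SD 0.16, 6 of 6 probe sets lower).

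The 15 interferon, interleukin and common chain receptors had a median of -0.13, with none past the rule and 10 below 0. That is 66.7%, beside 65.2% of all genes. These receptors ran from Il7r at -0.59 (SD 2.41) to Il2rg, the common gamma chain, at 0.90 (SD 1.02; 8.89 on the KO array, 7.60 on the heterozygous array). Adaptors next to the receptor had a median of -0.26 over 13 genes. Of these, 10 were below 0, or 76.9%, and 9 below the median of -0.11 over all genes. Gab1, a docking protein of Ptpn11, was the 1 adaptor of 13 past the rule, beside 1.12% of all genes as lower. Gab1 was at -1.19 (SD 0.95, 10 of 12 probe sets lower), with 8.79 on the KO array against 9.20 on the heterozygous array. Under the higher floor Gab1 was at -0.79 and missed the rule.

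The 13 STAT3 target genes, which include Agrp, had a median of 0.08, with 5 below 0 and 8 above, beside 65.2% of all genes below 0. Against the median over all genes, 10 of the 13 lay above it and 3 below, and with the arrays centred their median was 0.15. The list took no account of the direction in which STAT3 acts on each gene, and Agrp is also a defining peptide of the sorted cells. Its median and counts are therefore no measure of STAT3 activity. They ran from the repressor Bcl6 at -0.66 (SD 0.82) to the immediate early gene Fos at 0.48 (SD 0.57), and none passed the rule. Pomc, the peptide precursor of the neighbouring neurons, was at 0.28 (SD 0.46), with 6.87 on each array.

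Other phosphatase families were set beside the Ptpn genes. The receptor-type tyrosine phosphatases, which span the membrane and mostly act in adhesion, had a median of -0.30 over 19 of 20 genes. None passed the rule, and 18 were below 0, or 94.7%, beside 65.2% of all genes. Against the median of -0.11 over all genes, 14 lay below it and 5 above. These phosphatases ran from Ptprd at -0.69 (SD 1.13, 53 of 70 probe sets lower) to Ptpro at 0.30 (SD 0.77). The dual-specificity MAPK phosphatases had a median of 0.07 over 12 genes, with 5 below 0, from Dusp3 at -0.46 (SD 0.67) to Dusp6 at 0.64 (SD 0.93). The Ptpn median of -0.14 lay between those of these lists, and with 1 array per genotype no difference between the lists was tested.

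**Figure D5:**
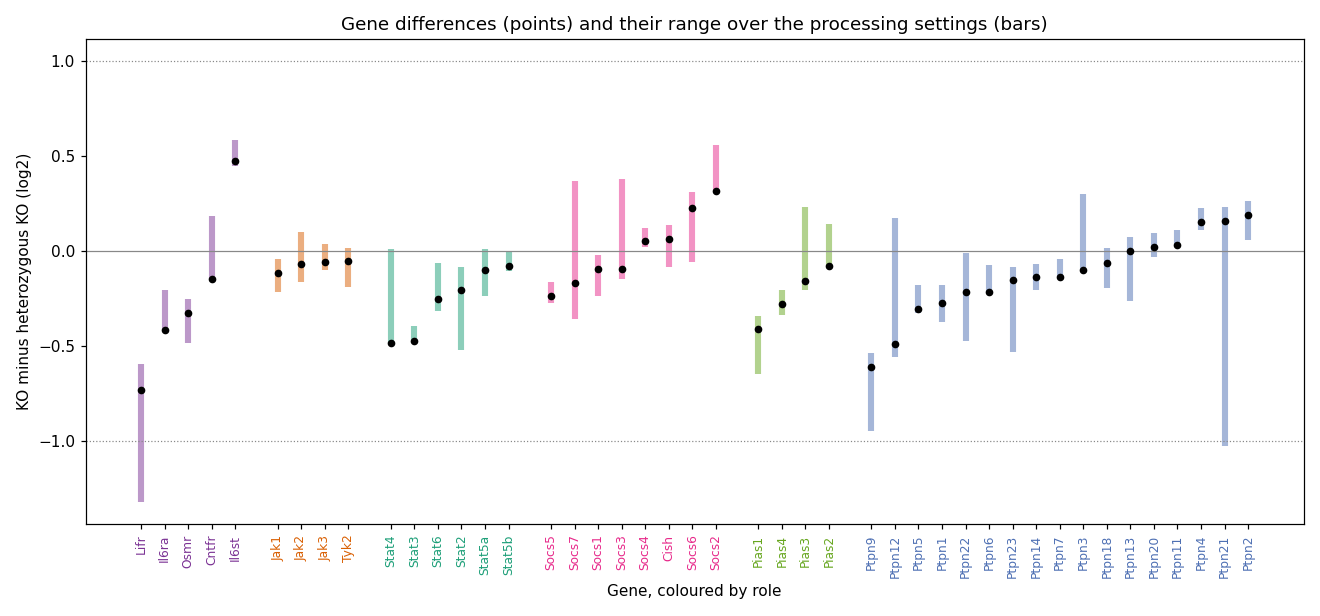
Difference of each gene (points, log2, KO minus heterozygous KO) and its lowest and highest value over the processing settings (bars), coloured by role, with dotted lines at a 2-fold difference. Il6st and Socs2 stay above 0 and Lifr, Ptpn9, Stat3 and Pias1 below it, while the bars of Socs3, Socs7, Ptpn12 and Ptpn21 cross it.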

How the data were processed

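Each of 2 samples was measured on 1 exon-level microarray. Per the submitters' processing notes, the authors used RMA and Partek, with no versions; RMA corrects background, quantile-normalizes and summarises the probes of a set. The deposited values were taken from their range (2.55 to 14.1 on the KO array, 2.53 to 14.1 on the heterozygous array) to be log2 intensity. RMA brings the arrays to nearly 1 distribution, so a change of total RNA does not show. No genome build or annotation release of the array is given in the sources used here.

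The platform annotation paired 318760 of 1235936 probe sets with 1 symbol and 6684 with several, and listed no symbol for 910492. Only those with 1 symbol named a gene, and all 44 symbols are current in RefSeq. Probe sets at or above the median of the mean over both arrays (5.86) were used, and genes with at least 3 were evaluated. A probe set can pass through 1 bright array. With 1 array per genotype no test was made, and the number of arrays limits all precision.

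The genes and lists were chosen with earlier results of these data known. All 44 genes are named, and of other lists up to 4 members past the 2-fold rule, or else the highest and lowest, with Lepr. One list of target genes is not reported here. Quartiles, medians and counts used Python 3.11.15, numpy 2.4.6 and pandas 2.3.3, and figures matplotlib 3.10.9. The summary was tested on simulated data. Alternatives varied the floor, the summary, the number of probe sets, the scaling, the fold and the agreement rule.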

Additional observations from a re-analysis of the deposited data

How the results depend on the processing

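No paired analysis was possible because there was 1 array per genotype. The 10 alternatives of floor, summary, probe set number and scaling, and a minimum of 10 probe sets per gene, which was chosen after seeing the data, gave a median over the 44 genes of -0.16 to -0.05. Between 29 and 34 genes were below 0, 20 genes were below 0 and 6 above it in each setting that evaluated them, and 18 crossed it. The minimum numbers of probe sets decide only which genes are evaluated, so those settings could not move a gene's own value. A like count of stable signs over all genes was not made. No gene was called 2-fold higher in any setting, and 1 (Lifr) was called lower, with the floor at the 75th percentile. In that setting the receptors had a median of -0.18, the transcription factors -0.11, the feedback inhibitors 0.15, gp130 ligands -0.062 and dual-specificity phosphatases -0.061. With no floor the transcription factors were at -0.072. By the mean over probe sets the SUMO ligases were at -0.10, the gp130 ligands at -0.035 and the leptin-type receptors at 0.23. With at least 5 probe sets the gp130 ligands were at -0.33. With at least 10, the feedback inhibitors were at -0.17, leptin-type receptors at 0.41 and dual-specificity phosphatases at -0.13. The stricter settings rest on fewer genes; the cause of the other shifts was not tested. Over all genes, 338 were higher and 329 lower with at least 1 probe set, 34 and 71 with at least 10, and 545 and 815 at 1.5-fold, beside 188 and 186. Signal over background limits the genes with few probe sets over the floor, chiefly Stat4, Osmr, Ptpn20 and Ptpn22.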
